A study of Rattus norvegicus with 15 samples.

Results

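The bone morphogenetic protein (BMP) genes described here are 4 ligands of the family (Bmp2, Bmp4, Bmp6 and Bmp7), a ligand of the growth and differentiation factor branch (Gdf5), 2 type I receptors (Bmpr1a and Bmpr1b) and 3 secreted antagonists (Grem1, Chrdl1 and Nog). Each gene was taken through the probe set whose only gene symbol in the array's annotation was that name. Of the 10 genes, 9 had such a probe set, and each had exactly 1. Gdf5 had none and is not analysed here. The 9 probe sets stood among 36685 on the array, of which 18511 carried a single symbol and named 18166 genes. Knee articular cartilage of Sprague-Dawley rats was collected at 5 stages, and total RNA of 3 samples a stage was measured on 15 arrays. The stages were the newborn (T0), youth (T1), the adult (T2), an early stage of old age (T3) and a late stage of old age (T4). No treatment or genetic change separated the groups, and the sources used here give neither the ages nor the sexes of the animals. Values are log2 signals, so a difference of 1 is a doubling.

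BMP ligands are secreted dimers that bind type I and type II receptor kinases at the cell surface. The activated type I receptor phosphorylates the proteins SMAD1, SMAD5 and SMAD9, which enter the nucleus with SMAD4 and switch on targets such as the Id genes. Secreted antagonists bind the ligands and keep them from the receptors. In the skeleton of mice this pathway drives the formation of cartilage and the maturation of growth plate chondrocytes, and noggin and GDF5 act in the forming joint.

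The arrays of T3 and T4 differed from the others in ways that touch every result at those stages. The standard deviation over all probe sets was 2.00 to 2.05 on the arrays of T0 to T2, 1.83 to 1.97 at T3 and 1.48 to 1.71 at T4. Olfactory receptor genes (1185 genes), which serve odour sensing, gave a mark for low signals through their 95th percentile on each array. That mark was 4.80 to 4.92 on the arrays of T0 to T2, 4.96 to 5.58 at T3 and 5.88 to 6.70 at T4. The mean correlation of an array with the others of its stage was 0.973 to 0.978 at T0 to T2, 0.922 to 0.940 at T3 and 0.791 to 0.876 at T4. The cartilage collagen gene Col2a1 averaged 12.36 ± 0.06 in T0, 12.50 ± 0.04 in T1, 11.91 ± 0.47 in T2, 9.70 ± 0.81 in T3 and 8.0 ± 1.47 in T4 (SD, n = 3 each). Aggrecan (Acan) averaged 6.61 ± 1.00 at T4, against 11.68 ± 0.16 at T0. The cartilage factor Sox9 had a probe set between 5.12 and 5.58 in all 5 stage means, little above the mark at T0 to T2 and below it at T4. The labels of T1 replicate 3 disagree: its source name says adult where its title says youth, and it was kept with T1.

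The stage mean was highest at T0 for 7 of the 9 genes: Bmp2, Bmp4, Bmp6, Bmp7, Bmpr1a, Bmpr1b and Nog. It was highest at T1 for Grem1 and at T2 for Chrdl1. Of the 7, only Bmp6, Bmpr1a and Bmpr1b had T0 arrays clear of the stage with the next highest mean. The share of all probe sets with their highest mean at T0 was not counted. Over the 5 stages, 6 of the 9 genes passed limma's moderated F test, against 60.1% of all probe sets. These were Bmpr1a (adjusted p = 5.8e-06), Bmpr1b (adjusted p = 3.21e-05), Bmp4 (adjusted p = 0.000182), Bmp6 (adjusted p = 0.000886), Grem1 (adjusted p = 0.00315) and Chrdl1 (adjusted p = 0.0185). Bmp2 (adjusted p = 0.0574), Bmp7 (adjusted p = 0.0612) and Nog (adjusted p = 0.425) did not pass. Under the 24 alternative settings Bmp2 and Bmp7 passed in 7 each and Nog in 1. Without the T4 arrays the F test no longer called Grem1 (adjusted p = 0.0863) or Chrdl1 (adjusted p = 0.240). Chrdl1 was also not called without T4 replicate 2 (adjusted p = 0.0580), under quantile normalization or with the T0, T1 and T2 arrays alone.

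**Figure D1:**
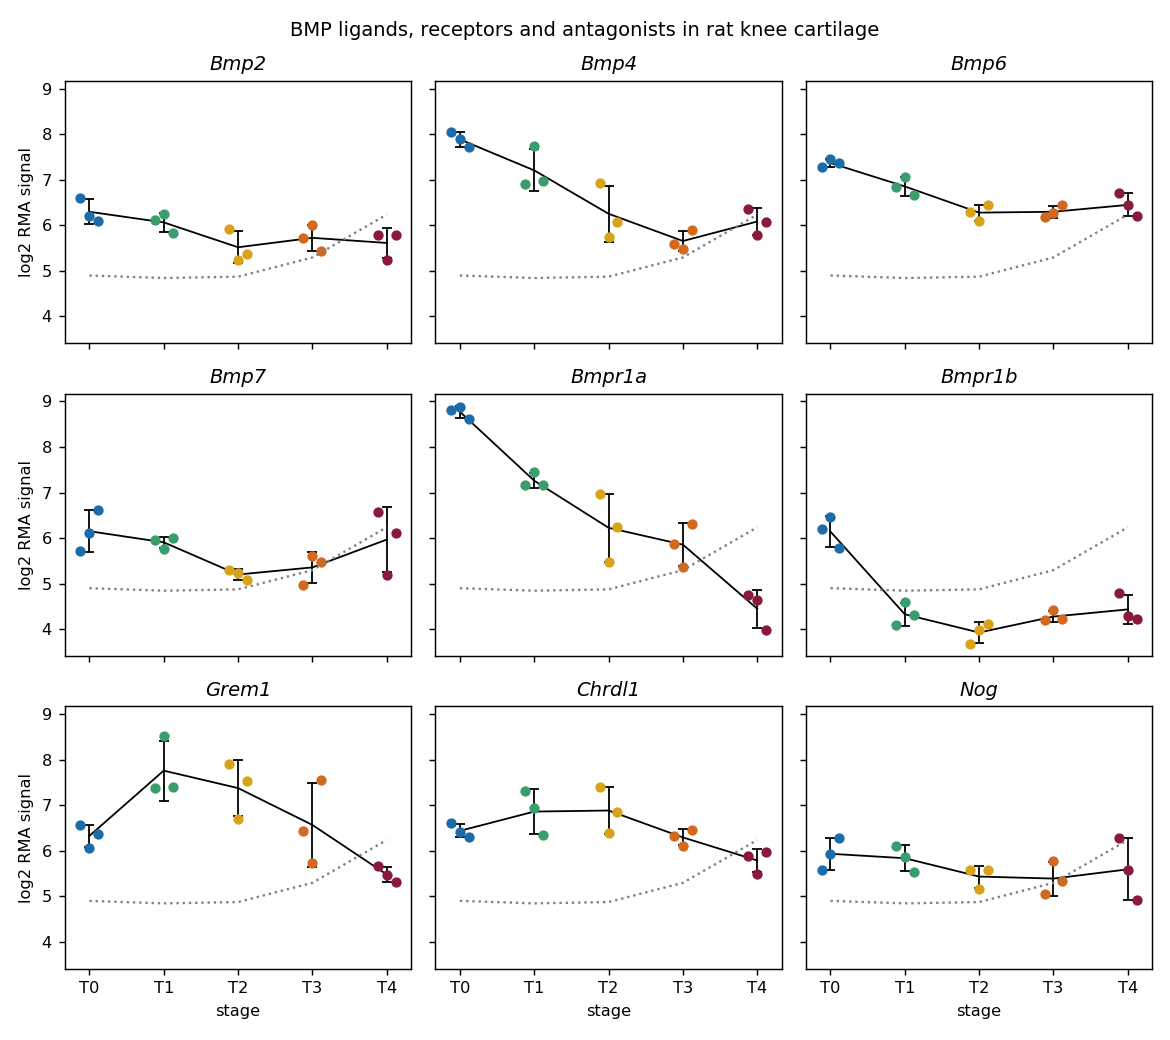
Log2 RMA signal (vertical axis) of the 9 measured genes at stages T0 to T4 (horizontal axis). Points are arrays, the black line joins stage means with their SD (n = 3), and the dotted line is the mean over a stage's arrays of the 95th percentile of olfactory receptor genes. The Bmpr1a and Bmp4 points step down between T0 and T2, the Grem1 mean is highest at T1 with points that overlap those of T2, and at T4 only the Bmp6 mean lies above the dotted line.

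Of the 4 genes that fell between T0 and T2, the promoters of Bmp4, Bmp6 and Bmpr1a had an entry and are shown. That of Grem1 is shown beside them as the gene with its highest mean at T1. The sequences are those of RefSeq (build GRCr8), with 250 bases before and 50 bases after the listed start, read on the strand of the gene. Of the 10 genes, 6 had an entry. Those of Bmp4, Bmp6 and Chrdl1 begin at a start that is not the outer end of the annotated gene. Capitals mark matches, on either strand, to the motifs GGGCGG (the GC box), CCAAT (the CCAAT box), TATAAA (the TATA box), GGCGCC (a GC motif known to bind SMAD proteins) and ACAAAG (a core of SOX-family motifs).
Bmp4, minus strand, chr15:22101884-22102183: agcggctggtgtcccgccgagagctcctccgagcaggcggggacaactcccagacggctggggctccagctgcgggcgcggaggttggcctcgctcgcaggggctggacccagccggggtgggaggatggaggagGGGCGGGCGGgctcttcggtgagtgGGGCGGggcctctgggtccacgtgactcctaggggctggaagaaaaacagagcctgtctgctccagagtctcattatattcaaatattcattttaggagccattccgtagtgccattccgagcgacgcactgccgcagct
Bmp6, minus strand, chr17:26675212-26675511: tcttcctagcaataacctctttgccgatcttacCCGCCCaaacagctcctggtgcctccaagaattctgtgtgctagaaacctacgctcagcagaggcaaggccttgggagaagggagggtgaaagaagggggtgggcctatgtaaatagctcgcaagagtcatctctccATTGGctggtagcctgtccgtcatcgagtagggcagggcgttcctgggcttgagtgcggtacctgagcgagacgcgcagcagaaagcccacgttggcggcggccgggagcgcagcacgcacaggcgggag
Bmpr1a, minus strand, chr16:9786812-9787111: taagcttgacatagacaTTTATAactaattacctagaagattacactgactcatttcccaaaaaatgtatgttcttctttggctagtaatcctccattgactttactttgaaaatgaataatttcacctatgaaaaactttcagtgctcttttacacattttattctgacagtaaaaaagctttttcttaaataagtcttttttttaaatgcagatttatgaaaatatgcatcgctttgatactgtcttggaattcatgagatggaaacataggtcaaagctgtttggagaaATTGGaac
Grem1, minus strand, chr3:120978270-120978569: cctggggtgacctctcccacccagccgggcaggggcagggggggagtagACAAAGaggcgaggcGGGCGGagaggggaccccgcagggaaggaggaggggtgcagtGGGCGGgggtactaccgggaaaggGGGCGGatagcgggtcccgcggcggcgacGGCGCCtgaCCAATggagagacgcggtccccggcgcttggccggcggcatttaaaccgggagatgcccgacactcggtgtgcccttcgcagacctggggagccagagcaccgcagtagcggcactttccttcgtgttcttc

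The Bmpr1a window had a GC content of 30.0% and a single CpG. The windows of Bmp4, Bmp6 and Grem1 had GC contents of 65.0%, 59.3% and 70.0%, with 22, 18 and 28 CpGs. Over all 33469 promoter windows of the table the median was 51.7% and 7 CpGs, and the 10th percentile was 38.7%. The GC box matched 3 times in Bmp4, with the first 2 matches overlapping, once in Bmp6 and 3 times in Grem1, and it occurs in 33.1% of all windows. CCAAT matched in Bmp6, Bmpr1a and Grem1 (37.5% of all windows), TATAAA in Bmpr1a (14.2%), and GGCGCC (11.0%) and ACAAAG (18.8%) in Grem1. In Bmpr1a the TATAAA match lay at -233 from the listed start and the CCAAT match at 43, after the start. Both were on the strand opposite to the gene. Whether any match acts in these tissues was not tested. No motif was shared by Bmp4, Bmp6 and Bmpr1a.

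Among the ligands, Bmp4 and Bmp6 fell between the newborn and the adult, and Bmp2 and Bmp7 had lower adult means that did not pass the test. Bmp4, a ligand that acts from limb formation onward, had signals of 8.06, 7.89 and 7.72 on the T0 arrays and 6.91, 7.74 and 6.97 at T1. It had 6.94, 5.75 and 6.07 at T2, 5.59, 5.49 and 5.89 at T3, and 6.37, 5.80 and 6.08 at T4. Every T0 array lay above every T2 array, and the T0 and T1 arrays overlapped by a single array. Bmp4 averaged 6.26 ± 0.62 at T2, against 7.89 ± 0.17 at T0 (SD, n = 3 each), a log2 difference of -1.63 (SE 0.30) or 3.10-fold lower, with a limma adjusted p of 0.00160. Steps between neighbouring stages did not pass for Bmp4, with differences of -0.68 at T1 against T0 (adjusted p = 0.271) and -0.95 at T2 against T1 (adjusted p = 0.231). Its stage order was T0, T1, T2, T4 and T3, and each stage overlapped the next in that order.

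Bmp6, a ligand also known for setting liver hepcidin, had 7.29, 7.45 and 7.37 at T0, 6.85, 7.06 and 6.66 at T1, and 6.30, 6.09 and 6.44 at T2. The 3 stages were separated with no overlap between neighbours. Later arrays lay in much the same range as T2, with 6.18, 6.27 and 6.44 at T3 and 6.71, 6.44 and 6.20 at T4. Bmp6 averaged 6.28 ± 0.18 at T2, against 7.37 ± 0.08 at T0 (SD, n = 3 each), a log2 difference of -1.09 (SE 0.19) or 2.13-fold lower, with a limma adjusted p of 0.000939. The steps of -0.52 at T1 against T0 (adjusted p = 0.145) and -0.58 at T2 against T1 (adjusted p = 0.256) did not pass. At T4 Bmp6 alone among the 9 genes exceeded the olfactory mark on all 3 arrays. The margin was small on replicate 1 (6.71 against a mark of 6.70) and replicate 3 (6.20 against 6.13). On replicate 3 Bmp7, at 6.12, and Bmp4, at 6.08, lay just under the mark.

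Bmp2, a ligand that promotes chondrocyte maturation and bone formation, had 6.60, 6.20 and 6.10 at T0 and 6.12, 6.25 and 5.83 at T1. It had 5.92, 5.25 and 5.38 at T2, 5.73, 6.01 and 5.43 at T3, and 5.80, 5.25 and 5.80 at T4. The T2 arrays all lay below the T0 arrays, and the other stages overlapped with one another in the order of their means. The difference of T2 from T0 was -0.78 (SE 0.25, adjusted p = 0.0545), just outside the threshold. Without the T4 arrays it passed (adjusted p = 0.0344), as it did with the T0, T1 and T2 arrays alone (adjusted p = 0.0269). It passed in 12 of 25 alternative settings, among them without T2 replicate 1 (difference -0.98, adjusted p = 0.0251), without T3 replicate 2 (adjusted p = 0.0479) or replicate 3 (adjusted p = 0.0483), and without T4 replicate 1 (adjusted p = 0.0394) or replicate 2 (adjusted p = 0.0385).

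Bmp7, a ligand needed for kidney and eye development in mice, had 5.71, 6.12 and 6.62 at T0, 5.95, 5.77 and 6.00 at T1, and 5.29, 5.24 and 5.07 at T2. It had 4.98, 5.61 and 5.48 at T3, and 6.58, 5.20 and 6.12 at T4. The T2 arrays lay below all arrays of T0 and T1, and the T4 arrays spread from 5.20 to 6.58. The difference of T2 from T0 was -0.95 (SE 0.32, adjusted p = 0.0689). It passed without the T4 arrays (adjusted p = 0.0132) and with the T0, T1 and T2 arrays alone (adjusted p = 0.00954). The difference of T4 from T2 was 0.77 (SE 0.32, adjusted p = 0.0523), with T4 replicate 2 inside the T2 range. The first of these passed in 8 of 25 settings, among them without T0 replicate 1 (difference -1.17, adjusted p = 0.0464), without T4 replicate 1 (adjusted p = 0.0265) and without T4 replicate 2 (adjusted p = 0.0185). The second passed in 6 of 23, among them without T4 replicate 2 (difference 1.15, adjusted p = 0.00314), without T0 replicate 1 (adjusted p = 0.0489) and without T0 replicate 3 (adjusted p = 0.0470).

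At T1 and at T2 the type I receptors had the largest differences from the newborn among the 9 genes. Bmpr1a, whose product serves many BMP ligands in most tissues, had 8.82, 8.88 and 8.62 at T0, 7.17, 7.45 and 7.16 at T1, and 6.97, 5.47 and 6.24 at T2. It had 5.87, 5.37 and 6.32 at T3, and 4.74, 4.63 and 3.98 at T4. The means descended at every stage, and only T2 and T3 overlapped among neighbours. Bmpr1a fell to 7.26 ± 0.16 at T1, against 8.77 ± 0.13 at T0 (SD, n = 3 each), a log2 difference of -1.51 (SE 0.34, limma adjusted p = 0.0113). That call was lost when T1 replicate 3 was placed with T2 (adjusted p = 0.0730), without T1 replicate 3 (adjusted p = 0.0506) and without T0 replicate 2 (adjusted p = 0.0529). Between T2 and T0 the difference was -2.55 (SE 0.34), or 5.85-fold lower at T2, with a limma adjusted p of 0.000105. The step from T1 to T2 of -1.03 did not pass (adjusted p = 0.256), nor did that from T2 to T3 of -0.37 (adjusted p = 0.555). In bulk tissue such as this, fewer cells that express a gene and less RNA per cell cannot be told apart.

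Bmpr1b, whose product is a main receptor of GDF5 in the limb, had 6.19, 6.46 and 5.78 at T0, above every later array. It had 4.09, 4.59 and 4.30 at T1, 3.67, 3.99 and 4.12 at T2, 4.20, 4.41 and 4.22 at T3, and 4.80, 4.28 and 4.22 at T4. All 12 arrays after T0 lay below the olfactory mark, so that the probe set registered Bmpr1b above low signals in the newborn only. It averaged 4.33 ± 0.25 at T1, against 6.14 ± 0.34 at T0 (SD, n = 3 each), a log2 difference of -1.82 (SE 0.23, limma adjusted p = 0.000169). At T2 the difference from T0 was -2.22 (SE 0.23, limma adjusted p = 1.16e-05). No later step passed, and the T1 and T2 arrays overlapped.

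Of the antagonists, Grem1 and Chrdl1 had higher means at T1 and T2 than at T0, differences that did not pass the test, and Nog had its highest mean at T0. Grem1, which encodes gremlin, an antagonist of BMP2, BMP4 and BMP7, had 6.56, 6.06 and 6.36 at T0 and 7.37, 8.52 and 7.39 at T1. It had 7.91, 6.69 and 7.53 at T2, 6.43, 5.73 and 7.55 at T3, and 5.66, 5.47 and 5.31 at T4. Every T1 and T2 array lay above every T0 array, the T3 arrays spread across these ranges, and the T4 arrays were the lowest. Grem1 averaged 7.76 ± 0.66 at T1, against 6.33 ± 0.25 at T0 (SD, n = 3 each), a log2 difference of 1.43 (SE 0.43, adjusted p = 0.0621) that did not pass. It was called in 6 of 25 alternative settings, among them with the T0, T1 and T2 arrays alone (adjusted p = 0.0289), without T3 replicate 2 (adjusted p = 0.0348) and without T3 replicate 3 (adjusted p = 0.0235). At T2 the difference from T0 was 1.05 (SE 0.43, adjusted p = 0.159).

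Chrdl1, which encodes a chordin-like antagonist of BMP4, had 6.60, 6.41 and 6.31 at T0 and 7.32, 6.93 and 6.34 at T1. It had 7.41, 6.38 and 6.86 at T2, 6.33, 6.10 and 6.45 at T3, and 5.89, 5.50 and 5.97 at T4. T0 to T3 overlapped, and the T4 arrays lay below all others. The difference of T2 from T0 was 0.45 (SE 0.28, adjusted p = 0.449).

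Nog, which encodes noggin, the antagonist that keeps forming joints open in mice, showed no called change in any comparison. Its arrays read 5.58, 5.93 and 6.29 at T0, 6.11, 5.87 and 5.54 at T1, and 5.57, 5.16 and 5.58 at T2. They read 5.04, 5.78 and 5.34 at T3, and 6.28, 5.58 and 4.92 at T4. Each stage overlapped every neighbour in the order of its means, and the largest difference of the 6 comparisons, T2 from T0, was -0.50 (SE 0.32, adjusted p = 0.459).

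Counted by comparison, every call among the 9 genes was a fall. Between T1 and T0, 2 of 9 fell (Bmpr1a and Bmpr1b), where 7.56% of all probe sets were called and 3.54% fell. Between T2 and T0, 4 of 9 fell (Bmp4, Bmp6, Bmpr1a and Bmpr1b), where 12.7% were called and 6.19% fell. With dim probe sets removed from that comparison, Bmpr1b among them, 5 of 8 genes were called, and a larger share of probe sets was too. In that comparison 7 of 9 genes had arrays that did not overlap between stages, against 36.3% of probe sets. Among the 7 was Grem1, which was higher at T2. The median change of all 9 genes was -0.95, against -0.01 over all probe sets. Between T2 and T1 none of the 9 passed with limma, where 0.891% of probe sets did. At an unadjusted limma p under 0.05 there were 5 of the 9, a level whose share over all probe sets was not counted. With limma's array weights 4 passed that step, where 6.49% of probe sets did. Between T3 and T2 none passed either, where 0.15% of probe sets did and 0 of the 9 had an unadjusted p under 0.05. Without T2 replicate 1, Bmp4 was called lower at T2 than at T1 (difference -1.30, adjusted p = 0.0494). Arrays did not overlap for 4 of 9 genes between T1 and T0 (32.3% of probe sets), 3 between T2 and T1 (22.4%), 1 between T3 and T2 (26.5%) and 3 between T4 and T3 (41.6%).

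The late comparisons changed a large share of the array. Between T4 and T3, 1 of 9 genes fell, where 42.2% of probe sets were called and 25.8% fell. It was Bmpr1a, at 4.45 ± 0.41 in T4, against 5.86 ± 0.48 in T3 (SD, n = 3 each), a log2 difference of -1.41 (SE 0.34, limma adjusted p = 0.00572). At T4, 8 of the 9 genes, all but Bmp6, were above the olfactory mark on no array, so no fold is given for that stage. With only the T4 and T3 arrays in the fit it was not called (adjusted p = 0.0528). Grem1 differed by -1.09 (SE 0.43, adjusted p = 0.0562) and had T4 arrays below all T3 arrays. Without T3 replicate 2, whose Grem1 signal was the lowest of T3, the difference was -1.51 and was called (adjusted p = 0.0135), and it was also called without T1 replicate 2 (adjusted p = 0.0442) or T2 replicate 2 (adjusted p = 0.0484). Bmp7 likewise passed that step without T4 replicate 2 (difference 0.99, adjusted p = 0.0101).

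Between T4 and T2, 3 of 9 genes fell, where 56.5% of probe sets were called and 29.4% fell. Bmpr1a averaged 4.45 ± 0.41 at T4, against 6.23 ± 0.75 at T2 (SD, n = 3 each), a log2 difference of -1.78 (SE 0.34, limma adjusted p = 0.000708). Grem1 averaged 5.48 ± 0.17 at T4, against 7.38 ± 0.62 at T2, a log2 difference of -1.90 (SE 0.43, limma adjusted p = 0.00224). Chrdl1 averaged 5.79 ± 0.25 at T4, against 6.88 ± 0.51 at T2, a log2 difference of -1.10 (SE 0.28, limma adjusted p = 0.00475). The T4 signals of all 3 genes were under the olfactory mark on every array, so these differences are set against signals not told apart from low ones. The T4 arrays of these genes did not overlap the T2 arrays, a separation that 62% of probe sets also had. The comparisons of T2 with T0 and of T4 with T2 share the T2 arrays.

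The narrowed range of the T4 arrays moved with signal level, and these values stand beside the falls at T4. Probe sets with a mean of 6 to 8 over all arrays, where Bmpr1a, Grem1, Chrdl1, Bmp4 and Bmp6 lie, had a median difference of -1.03 between T4 and T2. Those with a mean of 4 to 6, where Bmp2, Bmp7, Nog and Bmpr1b lie, had a median difference of 0.36. Between T2 and T0 the same medians were 0.02 and -0.02. By rank within the array, Bmpr1a stood above 25% to 36.9% of probe sets at T4, against 57.7% to 80.4% at T2. Grem1 stood above 54.2% to 61.8% at T4, against 77.1% to 90.2% at T2, and Chrdl1 above 58.9% to 72.5% at T4, against 72.6% to 85.5% at T2. The ranks of all 3 genes were lower on every T4 array than on any T2 array, with the T4 signals under the olfactory mark. The part of the narrowed range in these differences was not tested.

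**Figure D2:**
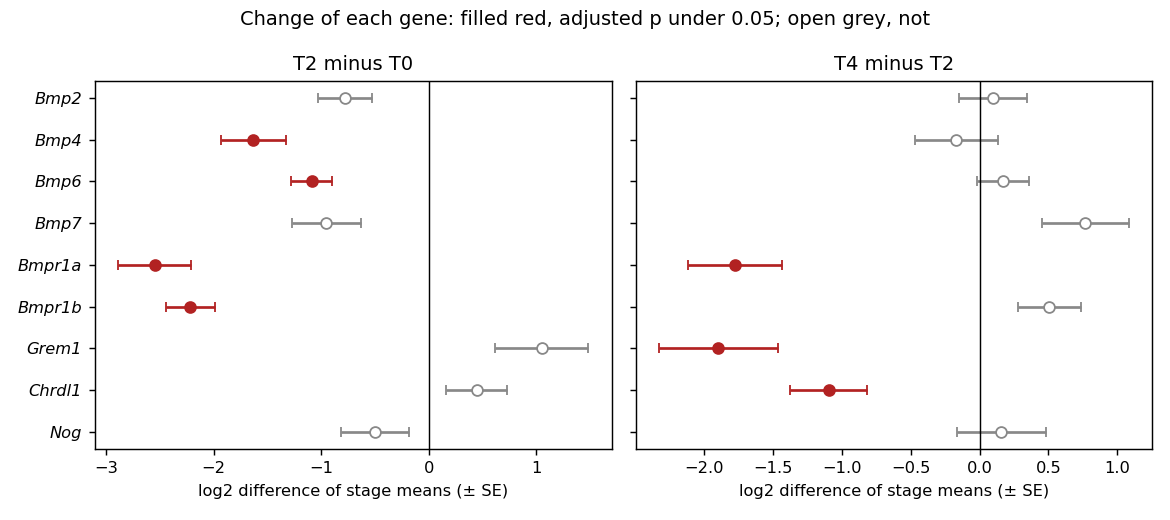
Log2 difference of stage means (horizontal axis, bars are SE) for the 9 genes (vertical axis), T2 minus T0 on the left and T4 minus T2 on the right. Filled red points passed limma's test at an adjusted p under 0.05: Bmp4, Bmp6, Bmpr1a and Bmpr1b lie left of 0 in the first panel, and Bmpr1a, Grem1 and Chrdl1 in the second.

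Differences within each array set the course of Grem1 and Chrdl1 beside that of Bmp4, and the receptors beside each other. These pairs were chosen after their values were seen and carry no test, and the zero of such a difference has no meaning because the probe sets differ. Grem1 minus Bmp4 was -1.56 ± 0.24 in T0, 0.55 ± 0.20 in T1, 1.12 ± 0.29 in T2, 0.91 ± 0.71 in T3 and -0.61 ± 0.24 in T4 (SD, n = 3 each). Every array of T1, T2 and T3 lay above every array of T0 and T4. Chrdl1 minus Bmp4 was -1.45 ± 0.03 in T0, -0.35 ± 0.66 in T1, 0.63 ± 0.17 in T2, 0.64 ± 0.10 in T3 and -0.30 ± 0.18 in T4. Its T2 and T3 arrays lay above all arrays of the other stages. At T4 Grem1, Chrdl1 and Bmp4 were all under the olfactory mark on every array, and Bmp4 also on T3 replicate 2. The T4 values of both pairs are therefore differences between signals not told apart from low ones. Other pairs were less separated: Grem1 minus Bmp2 was 0.84 ± 1.20 in T3, against 0.03 ± 0.21 in T0, and its T3 arrays reached below those of T0. Nog minus Bmp4 was -1.37 ± 0.54 in T1, against -1.95 ± 0.52 in T0, with overlapping arrays. Bmpr1a minus Bmpr1b was 2.63 ± 0.21 in T0, 2.93 ± 0.12 in T1, 2.30 ± 0.92 in T2, 1.58 ± 0.58 in T3 and 0.01 ± 0.30 in T4, with Bmpr1b below the olfactory mark after T0 and Bmpr1a below it on every T4 array.

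**Figure D3:**
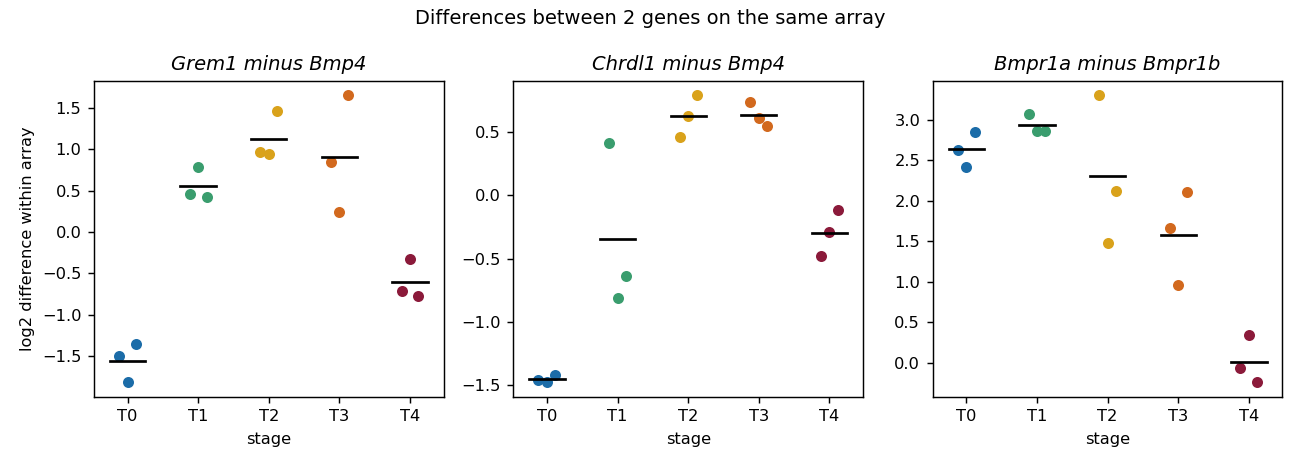
Log2 difference between a pair of genes on the same array (vertical axis) by stage (horizontal axis) for Grem1 minus Bmp4, Chrdl1 minus Bmp4 and Bmpr1a minus Bmpr1b. Points are arrays and black bars are stage means (n = 3). The Grem1 minus Bmp4 points at T1 to T3 lie above those at T0 and T4, and the Bmpr1a minus Bmpr1b points are lowest at T4. Each gene shown was under the olfactory mark on every T4 array.

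Of the other genes of the pathway, 53 had a probe set, and none was called higher at T2 than at T0, where 6.51% of all probe sets rose. At an unadjusted limma p under 0.05, 2 of the 53 were higher, with no share over all probe sets counted at that level. In that comparison 13 of 53 fell, against 6.19% of all probe sets, with a median change of -0.32, against -0.01 over all probe sets. The share of 6.19% includes probe sets with dim signals. A larger share of probe sets was called once these were removed, and falls were not counted apart there. The part of dim probe sets in the gap between the 53 genes and the whole array was not tested. The other receptors and co-receptors held 5 of these falls among 7 genes. Hjv, a co-receptor known from skeletal muscle and liver, was at 4.72 ± 0.27 in T2, against 8.10 ± 0.32 in T0 (difference -3.38, SE 0.26, limma adjusted p = 8.65e-07). Acvr1, a type I receptor, was at 6.67 ± 0.35 in T2, against 8.14 ± 0.28 in T0 (difference -1.47, SE 0.22, limma adjusted p = 0.000283). Antagonists and modulators held 4 falls among 17, led by Fstl1, a secreted follistatin-like glycoprotein (difference -2.52, SE 0.23, limma adjusted p = 4.08e-06), and Nbl1, a DAN-family antagonist (difference -1.84, SE 0.39, limma adjusted p = 0.00488). Other ligands held 2 among 12, which were Mstn, the muscle growth inhibitor myostatin (difference -2.36, SE 0.27), and Bmp5, a ligand of skeletal development (difference -1.45, SE 0.34). The T2 means of Hjv and Mstn lay under the olfactory mark. The intracellular list held 1 among 8, Smad5 (difference -1.11, SE 0.27), and the known targets 1 among 9, Id3 (difference -0.61, SE 0.18).

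Within the first step, 5 of the 53 fell and 1 rose at T1 against T0, where 3.54% of all probe sets fell and 4.01% rose. Bmp3, a ligand that restrains bone formation, was at 7.33 ± 0.30 in T1, against 6.03 ± 0.35 in T0 (difference 1.31, SE 0.33, limma adjusted p = 0.0226). The falls were Mstn (-2.01), Hjv (-1.81), the co-receptor Rgma (-1.04), Fstl1 (-1.33) and the antagonist Chrd (-0.88). Between T2 and T1 only Hjv (-1.57) and Fstl1 (-1.19) fell among the 53, and between T3 and T2 none of the 53 passed with limma. At an unadjusted p under 0.05, 7 of the 53 were higher and 6 lower at T3, again with no share over all probe sets counted.

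At T4 the pathway genes moved in both directions, as the whole array did. Between T4 and T2, 13 of 53 rose and 14 fell, where 27.2% and 29.4% of all probe sets did, with a median change of 0.03, against 0.07 over all probe sets. The intracellular list held 5 falls among 8, led by Smad5, at 5.31 ± 0.36 in T4 against 7.37 ± 0.28 in T2 (difference -2.06), and Smad4, the common partner of the SMADs, at 6.31 ± 0.61 in T4 against 8.43 ± 0.06 in T2 (difference -2.12). The same list held 1 rise, Smad6, at 6.78 ± 0.33 in T4 against 6.17 ± 0.29 in T2 (difference 0.61, limma adjusted p = 0.0288). Of the type II receptors, Bmpr2 (-1.31) and Acvr2a (-1.54) fell and Acvr2b rose (0.95, adjusted p = 0.0203). Falls were also called for Crim1 (-2.06) and Twsg1 (-1.53), both BMP-binding modulators. Rises were called for the joint ligand Gdf6 (1.80), Hjv (1.58), the target Msx1 (1.67) and the modulators Bmper (1.37) and Kcp (1.17). Several of these means lay under the range of the olfactory mark. Bmper did so at both stages, with 5.44 ± 0.07 in T4 and 4.08 ± 0.13 in T2, Hjv and Acvr2b at T2, and Smad5, Bmpr2, Acvr2a, Acvr2b and Twsg1 at T4. The T4 means of Hjv (6.30), Smad4 and Crim1 (5.90) lay within the mark's range at T4, 5.88 to 6.70. Those of Smad6 (6.78), Msx1 (6.73) and Kcp (6.71) lay just above it. Over all probe sets, the median difference between T4 and T2 was 0.36 at mean levels of 4 to 6 and -1.03 at 6 to 8. Between T4 and T3, 7 of the 53 rose and 9 fell, where 16.5% and 25.8% of all probe sets did. Gdf6 was below the olfactory mark range of T0 to T2 in its means there, at 4.36 ± 0.30, 4.34 ± 0.19 and 4.65 ± 0.05, and averaged 6.45 ± 0.69 at T4, within the mark's range at that stage.

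**Figure D4:**
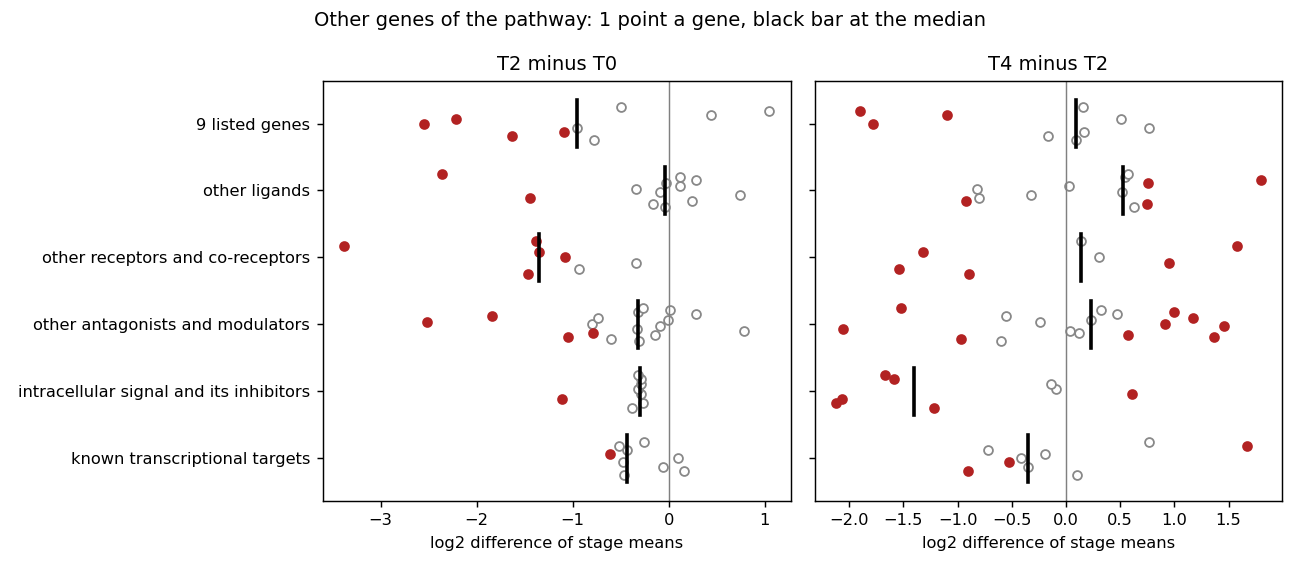
Log2 difference of stage means (horizontal axis) for the 9 genes and 5 lists of other pathway genes (rows), T2 minus T0 on the left and T4 minus T2 on the right. Each point is a gene, filled red where limma's adjusted p was under 0.05, and the black bar is the median of the list. All red points of the left panel lie below 0, and those of the right panel lie on both sides.

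The genes most like each in course were sought by Pearson correlation over the 12 arrays of T0 to T3, among 17474 genes. The arrays share their stages, so these values describe a common course and carry no test. Bmpr1b was most like Vgll2, Cav3 and Cacnb1 (r = 0.99 each, and 0.98, 0.97 and 0.96 over 15 arrays), genes known from skeletal muscle. Since Bmpr1b was under the olfactory mark on every array after T0, these values rest mainly on the T0 arrays against low signals. Bmpr1a was most like Erf, Cachd1 and Col6a3 (r = 0.99 each), of which Erf reached only 0.70 over 15 arrays. Bmp4 was most like Nid1, Lrrc58 and Pdpn (r = 0.98 each), and Bmp6 like Kera, Cryab and Adamts12 (r = 0.98 each). Grem1 was most like Frrs1 (r = 0.95), Mavs (r = 0.93) and Fbxo42 (r = 0.92), which had 0.95, 0.95 and 0.94 over 15 arrays. The highest correlations of Bmp2 (Ppp1r2, r = 0.94), Bmp7 (Grin3a, r = 0.95), Nog (Acsf2, r = 0.90) and Chrdl1 (Ocln, r = 0.92) came with 0.56, 0.82, 0.80 and 0.40 over 15 arrays.

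Markers of other cell types moved with the same stages. The summed signal of 9 skeletal muscle genes was 14.1 to 14.5 on the log2 scale at T0, 11.7 to 12.7 at T1 and 8.04 to 8.43 at T2. All 9 of them fell at T2 against T0, where 6.19% of all probe sets fell and 6.51% rose. Of the 9, 3 stayed above the olfactory mark on every T2 array. Bmpr1b, Bmpr1a, Hjv and Mstn fell over the same span. The muscle genes had a median change of -2.21 at T1 against T0 and -4.11 at T2 against T1. In the same steps Bmpr1b changed by -1.82 and -0.40, and Mstn by -2.01 and -0.35. Bmpr1a changed by -1.51 and -1.03, and Hjv by -1.81 and -1.57. The T1 means of Bmpr1b and Mstn were already under the olfactory mark. Genes of tendon, ligament and synovial fibroblasts also fell in 6 of 8 cases between T0 and T2, with a summed signal of 10.9 to 11.9 at T2, against 12.9 to 13.0 at T0. Erythroid genes rose in 6 of 6 cases at T1 against T0, where 4.01% of all probe sets rose. Their summed signal was 13.7 to 13.9 at T1, against 9.83 to 11.0 at T0. Neutrophil and myeloid genes rose in 8 of 11 cases at T1 against T0, and osteoblast and osteocyte genes in 5 of 8. Cartilage genes themselves fell in 9 of 13 cases and rose in 2 between T0 and T2, with a summed signal of 13.1 to 14.1 at T2, against 14.2 to 14.4 at T0. The part of these cell types in the changes of the BMP genes was not tested.

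**Figure D5:**
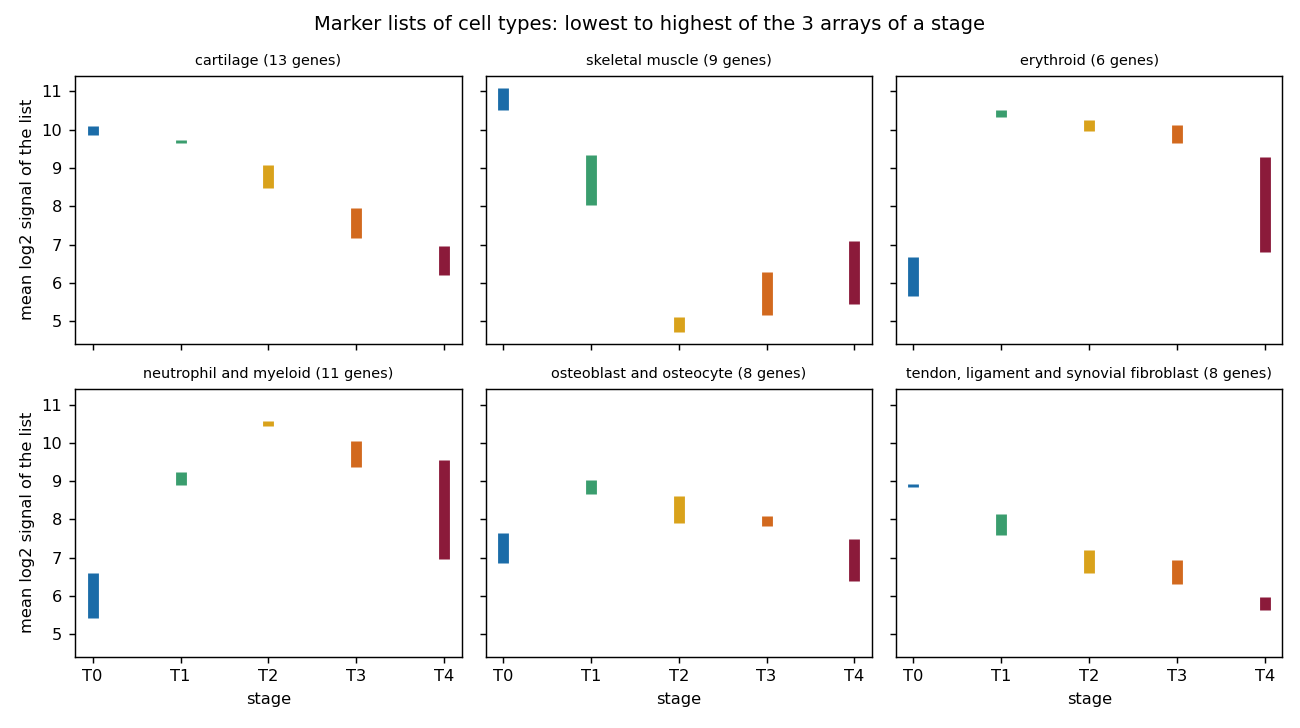
Mean log2 signal of 6 marker lists (vertical axis) by stage (horizontal axis). Each bar runs from the lowest to the highest of the 3 arrays. The skeletal muscle bars lie at 4.73 to 5.10 at T2, against 10.5 to 11.1 at T0, and the erythroid bars at 10.3 to 10.5 at T1, against 5.65 to 6.68 at T0.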

How the data were processed

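Total RNA of 15 knee cartilage samples was labelled with biotin and hybridised to Affymetrix RaGene 2.0 ST arrays, per the labels. The deposited values are log2 signals that the authors computed with RMA, as the submitters' processing notes name it. That method removes background, forces 1 distribution of probe signals on all arrays and combines the probes of a set, so shifts common to most transcripts can be lost. No source used here gives its version or library files.

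A mean per stage was fitted with limma 3.58.1 (R 4.3.3, functions lmFit and eBayes) over all 15 arrays without further normalization or filter. The 6 pairwise comparisons and a moderated F test were adjusted by the Benjamini-Hochberg method over all 36685 probe sets. Shares of all probe sets are taken over the same set. In it 17599 carried no gene symbol here, and 10000 had a mean under 4 over all arrays. With dim probe sets removed, the share called was larger in each of the 6 comparisons and in the F test. Changes with an adjusted p under 0.05 are described as called. For counts at an unadjusted p under 0.05 the share of all probe sets was not counted. An adjusted p in the text is from this model unless its sentence names another setting, which was fitted the same way. Samples of a stage are biological replicates per the labels. With arrays, their number sets the precision. The script was tested on simulated data.

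The 10 BMP and GDF genes, the pathway and marker lists and the tests were chosen with earlier results of these data known. Genes named from a pathway list were up to 2 called in each direction with the smallest p per comparison, and the 3 with the smallest p called in the F test. Likeness named the 3 genes with the highest correlation. Growth plate, lymphocyte, macrophage, osteoclast, adipocyte, endothelial and smooth muscle lists were also measured, and their changes are given with the other observations. Alternatives covered normalization, array weights, variance settings, the arrays fitted, dim probe sets, the doubtful array, replicate blocks and each array left out.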

Additional observations from a re-analysis of the deposited data

How the results depend on the processing

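Of the 10 called changes of single genes, 8 were called under every alternative that was run and none reversed. The exceptions, Bmpr1a at T1 against T0 and at T4 against T3, are given with their values in the report. Shares of all probe sets called in the same setting are given in brackets. The count of genes called at T1 against T0 was 2 (7.56%), against 4 with array weights (18.7%). It was 4 with the T0, T1 and T2 arrays alone (chosen after seeing the data, 14.8%). It was 1 with T1 replicate 3 placed with T2 (4.84%), and 1 to 3 with an array left out. At T2 against T1 it was 0 (0.891%), against 4 with array weights (6.49%) and 0 to 1 with an array left out. At T4 against T3 it was 1, against 3 under quantile normalization, 3 with array weights, 2 with dim probe sets removed, 0 with only the arrays compared, and 1 to 2 with an array left out. At T2 against T0 it was 4, against 7 with array weights and 4 to 6 with an array left out. There it was 6 without the T4 arrays, with only the arrays compared and with the T0, T1 and T2 arrays alone. The share of all probe sets called moved too: 4.84% to 18.7% at T1 against T0, 0.0245% to 6.49% at T2 against T1, 0% to 28.5% at T3 against T2, 6.9% to 58.8% at T4 against T3, 9.56% to 25.2% at T2 against T0, 44.2% to 67.8% at T4 against T2 and 20.3% to 82.7% in the F test. The array weights stopped before their convergence tolerance. The cause of these shifts was not tested, apart from the fewer arrays or probe sets in the fit.

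Of the 44 uncalled changes, 12 had the other sign under some alternative, all of them uncalled there. With arrays centred on their median, Chrdl1 was at -0.0241 for T2 against T1 and Bmp6 at -0.114 for T3 against T2, and for T4 against T2 Bmp2 was at -0.0898, Bmp6 at -0.0153 and Nog at -0.0262. Under quantile normalization Chrdl1 was at -0.0211 for T2 against T1 and Bmp4 at 0.27 for T4 against T2. With array weights the values were -0.11 for Bmp6 and -0.0706 for Bmp7 (T3 against T2), 0.0314 for Bmp2 and -0.15 for Nog (T4 against T3), and -0.10 for Bmp6 and -0.49 for Nog (T4 against T2). With T1 replicate 3 placed with T2 they were 0.0526 for Nog (T1 against T0), -0.37 for Chrdl1 (T2 against T1), and -0.0757 for Bmp6 and -0.0435 for Bmp7 (T3 against T2). With an array left out, Nog ranged from -0.27 to 0.0813 (T1 against T0), -0.24 to 0.13 (T3 against T2), -0.14 to 0.54 (T4 against T3) and -0.18 to 0.49 (T4 against T2). Likewise Chrdl1 ranged from -0.24 to 0.27 (T2 against T1), Bmp6 from -0.0748 to 0.10 (T3 against T2), Bmp2 from -0.26 to 0.0727 (T4 against T3) and -0.0389 to 0.30 (T4 against T2), Bmp4 from -0.42 to 0.17 (T4 against T2) and Bmpr1b from -0.0274 to 0.27 (T4 against T3).

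With the replicate number as a block, the counts were 2, 0, 0, 1, 4 and 3 in the 6 comparisons and 6 in the F test, as without it. Samples with the same number did not deviate together (r from -0.19 to 0.12 over 30 pairs), and 4 of 15 arrays correlated best with their own number, so the number does not pair them. The mean of a gene's probe sets was not run, since each gene had 1. At T4, 8 of the 9 genes were above the olfactory mark on no array, which limits what can be read there.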

Other observations

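Several signal transducers of the pathway, though not all, had descending means over all 5 stages. Among those that did not, Smad4 averaged 8.30 in T1 and 8.43 in T2. Smad6 averaged 6.17 in T2 and 6.78 in T4, and the co-receptor Hjv 4.72 in T2 and 6.30 in T4. Smad5, which carries the signal of type I receptors to the nucleus, averaged 8.48 ± 0.17 in T0, 7.81 ± 0.18 in T1, 7.37 ± 0.28 in T2, 6.42 ± 0.52 in T3 and 5.31 ± 0.36 in T4 (SD, n = 3 each; limma F test, adjusted p = 6.74e-06). Bmpr2, the type II receptor of BMP ligands, averaged 8.32 ± 0.05 in T0, 7.58 ± 0.10 in T1, 6.97 ± 0.38 in T2, 6.34 ± 0.24 in T3 and 5.66 ± 0.58 in T4 (adjusted p = 2.59e-05). Acvr1 averaged 8.14 ± 0.28 in T0, 7.63 ± 0.05 in T1, 6.67 ± 0.35 in T2, 6.45 ± 0.09 in T3 and 5.78 ± 0.29 in T4 (adjusted p = 1.21e-05). The means in T3 and T4 come from arrays with a narrowed range. The T4 means of Smad5, Bmpr2 and Acvr1 lay under the olfactory mark's range at that stage, 5.88 to 6.70. Probe sets with a mean of 6 to 8 had a median difference of -1.03 between T4 and T2.

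The 3 targets of BMP signalling with the smallest F test p followed different courses. Id1, an inhibitor of differentiation factors, averaged 8.24 ± 0.27 in T0, 7.66 ± 0.13 in T1, 7.77 ± 0.11 in T2, 7.54 ± 0.03 in T3 and 7.24 ± 0.16 in T4 (adjusted p = 0.00365). Id3, of the same family, averaged 7.26 ± 0.03 in T0, 7.37 ± 0.17 in T1, 6.65 ± 0.24 in T2, 6.82 ± 0.05 in T3 and 6.46 ± 0.19 in T4 (adjusted p = 0.00235). Msx1, a homeobox target, averaged 5.57 ± 0.10 in T0, 4.99 ± 0.06 in T1, 5.06 ± 0.10 in T2, 5.61 ± 0.44 in T3 and 6.73 ± 0.31 in T4 (adjusted p = 0.000130). Of the 9 listed targets, 5 passed the F test, against 60.1% of all probe sets, and 37 of the 53 other pathway genes did.

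The remaining marker lists are given as counts between T2 and T0, where 6.51% of all probe sets rose and 6.19% fell. B cell genes rose in 5 of 5 cases, T cell genes in 4 of 8 and macrophage genes in 2 of 8. Growth plate hypertrophy genes passed limma's test in 0 of 7 cases and osteoclast genes in 0 of 3, with 1 gene of each list higher at T2 at an unadjusted p under 0.05. Adipocyte genes rose in 1 and fell in 1 of 7 cases. Falls were called in 4 of 5 smooth muscle and pericyte genes and 1 of 5 endothelial genes.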
